A study of Mus musculus with 12 samples.

Results

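The histone mark H3K27ac was compared between mouse embryos at the no-bud stage (OB) and embryos at the mid-streak stage (MS). The OB list held 34823 peaks over 36.4 Mb and the MS list 30072 peaks over 35.9 Mb, and these are 2 of the 12 deposited libraries. Peaks of both lists that touch or overlap were merged into 38476 regions, and each region was sorted by which list had a peak in it. In all, 8540 regions (22.2%) held a peak at OB alone, 4301 (11.2%) at MS alone and 25635 (66.6%) at both. These are called OB-only, MS-only and shared regions here.

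All embryos were C57BL/6, and no allele, transgene or treatment is given for any group. Single cells were fixed in methanol and profiled with CoBATCH, in which an antibody guides the Tn5 transposase to marked chromatin. The labels date OB embryos to E7.25 and E7.5 and MS embryos to E6.0 and E7.0. Extraembryonic tissue was taken off Pre_PS (pre-streak), ES (early-streak), MS and LS (late-streak) embryos per the labels' protocols, which leave OB and EHF (early-headfold) embryos unmentioned on this point. How many embryos and cells entered each library, and how they were pooled, is not stated in the labels.

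H3K27ac is placed on nucleosomes at active promoters and enhancers by the acetyltransferases p300 and CBP. H3K4me1 marks enhancers more widely, active ones and those that are primed. Between the mid-streak and no-bud stages, epiblast cells go on passing through the primitive streak into mesoderm and definitive endoderm, and the germ layers start to be patterned into heart, blood, somite and neural precursors.

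There was 1 library for each stage and mark, so every difference below is between 2 libraries and has no replicate check. In a bulk peak list more marked cells and more mark per cell cannot be told apart. The background at the weakest peaks, read from the lowest fold and p of each list, was 0.230 fragments at OB and 0.211 at MS. It reached 0.262 at ES, 0.330 at LS and 0.289 at EHF, so the compared libraries had the lowest background of the 5 later stages; Pre_PS had 0.0499. The OB list held 1046 peaks at its lowest fold and p (floor peaks) and the MS list 831, each resting on a pileup of 3 fragments. For H3K4me1 the background was less even, with 0.329 at OB and 0.164 at MS.

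Promoters are shown first for genes described below whose promoter window carried a peak in the OB list alone, in the MS list alone or in both. Each is the 250 bases before a RefSeq transcript start (GRCm38.p6, the assembly that mm10 names), written 5′ to 3′ on the strand of the gene. Capitals mark CAGCTG, an E-box to which basic helix-loop-helix factors bind, and GGGCGG, a GC box to which SP and KLF factors bind, on either strand, and one can share an end base with the other. At a start of the uncharacterised gene 2900026A02Rik (chr5:113221277-113221526, minus strand) and one of Cbfa2t3, which encodes a corepressor active in blood development (chr8:122699110-122699359, minus strand), OB had a peak and MS had none. The peak at OB covered the whole 300 bp from 250 bp before to 50 bp after the start. The window was also covered whole at ES, LS and EHF, and no base of it at Pre_PS or MS. Another start of each gene (windows chr5:113163264-113163563 and chr8:122678126-122678425) was covered over all 300 bp at both OB and MS.
2900026A02Rik: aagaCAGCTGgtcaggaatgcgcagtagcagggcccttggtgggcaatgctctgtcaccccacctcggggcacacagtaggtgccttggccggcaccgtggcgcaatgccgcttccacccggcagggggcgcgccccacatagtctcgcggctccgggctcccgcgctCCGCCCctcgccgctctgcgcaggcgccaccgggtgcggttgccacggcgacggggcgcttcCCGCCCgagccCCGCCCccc
Cbfa2t3: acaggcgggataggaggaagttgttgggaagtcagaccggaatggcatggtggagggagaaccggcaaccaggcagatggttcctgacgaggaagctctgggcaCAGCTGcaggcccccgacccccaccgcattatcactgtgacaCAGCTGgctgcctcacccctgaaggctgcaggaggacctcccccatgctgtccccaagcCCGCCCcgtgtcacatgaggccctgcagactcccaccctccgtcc
At a start of LOC115488283, a gene with no role given in the annotation (chr14:6038260-6038509, minus strand), the window was not covered at OB, ES or EHF and was covered whole at MS and LS and in part at Pre_PS. At a start of Erg, an ETS transcription factor gene of endothelium and blood (chr16:95586594-95586843, minus strand), MS covered 23 of the 300 bp and no other stage covered any. The 1 region nearest to Erg was shared, so OB had a peak in it outside this window. Whether the 23 bp lie in the printed bases or in the 50 bp after the start was not checked.
LOC115488283: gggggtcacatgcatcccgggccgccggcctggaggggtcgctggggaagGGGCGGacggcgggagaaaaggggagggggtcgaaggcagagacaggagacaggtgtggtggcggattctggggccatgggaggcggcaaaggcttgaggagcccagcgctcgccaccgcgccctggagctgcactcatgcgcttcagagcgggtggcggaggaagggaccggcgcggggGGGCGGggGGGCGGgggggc
Erg: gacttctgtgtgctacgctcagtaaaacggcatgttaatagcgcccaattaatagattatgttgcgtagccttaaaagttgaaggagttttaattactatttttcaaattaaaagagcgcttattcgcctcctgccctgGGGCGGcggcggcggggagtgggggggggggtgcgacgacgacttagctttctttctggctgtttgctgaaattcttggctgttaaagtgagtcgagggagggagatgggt
At Hspg2 (chr4:137468553-137468802, plus strand) and Cdh22 (chr2:165234738-165234987, minus strand), which had the largest positive and negative differences in coverage, all 300 bp were covered in both lists, so their difference lies outside this window.
Hspg2: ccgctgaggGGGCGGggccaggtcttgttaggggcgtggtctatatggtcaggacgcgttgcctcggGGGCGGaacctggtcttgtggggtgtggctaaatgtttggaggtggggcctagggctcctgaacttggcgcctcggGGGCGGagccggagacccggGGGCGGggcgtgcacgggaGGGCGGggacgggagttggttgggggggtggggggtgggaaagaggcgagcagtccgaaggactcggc
Cdh22: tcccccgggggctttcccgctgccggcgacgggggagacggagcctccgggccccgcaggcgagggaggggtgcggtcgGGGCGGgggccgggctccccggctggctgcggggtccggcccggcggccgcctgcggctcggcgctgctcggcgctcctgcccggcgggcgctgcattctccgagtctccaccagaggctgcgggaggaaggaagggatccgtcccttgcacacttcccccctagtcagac
Over all 32619 RefSeq windows, 33.0% held GGGCGG and 13.1% CAGCTG on either strand within the 250 bases. The 565 windows with a peak at OB alone held GGGCGG in 28.1% and CAGCTG in 16.6%, the 400 with a peak at MS alone in 25.8% and 12.8%, and the 13880 with both in 65.1% and 12.1%. The median number of CpG dinucleotides was 7 in windows marked at OB alone, 6 at MS alone, 18 in both and 2 in windows with no peak, and over all windows it was 6. A match is a run of letters and does not show that a factor binds there.

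The regions found at a single stage were short, weak and away from gene ends. The median width was 402 bp for OB-only, 451 bp for MS-only and 1104 bp for shared regions. In the OB list, ranked by −log10 q from 0 to 100, OB-only regions had a median percentile of 18.7, against 62.8 for shared regions. In the MS list, MS-only regions had a median percentile of 14.8, against 57.3 for shared regions. Of the weakest decile of OB peaks 70.6% had no MS peak, and of the weakest decile of MS peaks 53.1% had no OB peak. In the strongest decile these were 0 of 3483 OB peaks, which allows up to 0.110% (95% Wilson interval, counting error only), and 1 of 3008 MS peaks.

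**Figure D1:**
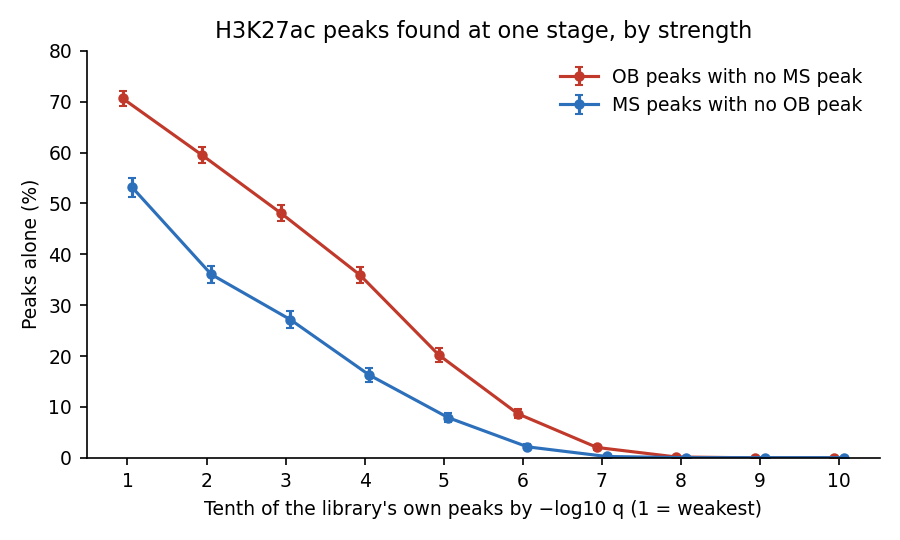
Percent of peaks with no peak of the other stage (y axis), by decile of the library's own −log10 q (x axis, 1 = weakest), for OB peaks (red) and MS peaks (blue) with 95% Wilson intervals. Both curves fall with strength, from 70.6% at OB and 53.1% at MS in the weakest decile to 0 of 3483 and 1 of 3008 peaks in the strongest.

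The shared set held most of each list: 28.6 Mb were covered at both stages, 78.7% of OB bases and 79.7% of MS bases, with a Jaccard index of 0.656 (bases in both over bases in either). Within shared regions MS peaks were wider more often than OB peaks. OB was the wider in 10830 (42.2%) and MS in 14727 (57.4%), with medians of 948 bp at OB and 995 bp at MS. OB-only regions summed to 4.13 Mb and MS-only regions to 2.39 Mb.

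Regions at a single stage lay mainly in distal chromatin. Over 1 kb from every end of a protein-coding gene ("far") were 90.2% of OB-only regions (95% Wilson interval 89.6 to 90.8%), 92.9% of MS-only regions (92.1 to 93.6%) and 49.2% of shared regions. Weak peaks were far whether or not the other list had a peak: 91.2% of the weakest decile of OB peaks and 91.7% of that of MS peaks. In the strongest decile 15.2% and 14.8% were far, so the classes also differ by strength here. With both lists cut to the upper 50% of peaks by −log10 q, the order of OB-only and MS-only regions turned. Then 70.5% of OB-only and 64.4% of MS-only regions were far. Against the whole other list, 85.7% of OB-only and 84.2% of MS-only regions in the upper 50% were far. The median distance to a gene end was 14.4 kb for OB-only, 26.7 kb for MS-only and 0.857 kb for shared regions. Over 50 kb from any gene end lay 22.5% of OB-only, 37.2% of MS-only and 9.19% of shared regions. The interval covers counting error only, since regions of a library are not replicates of a stage.

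**Figure D2:**
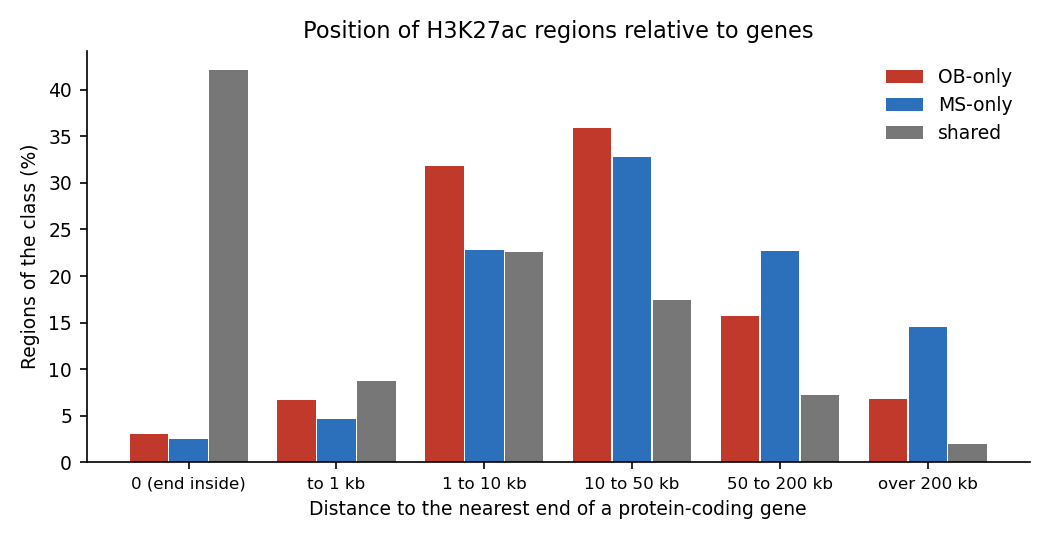
Percent of the regions of each class (y axis) by distance to the nearest end of a protein-coding gene (x axis), for OB-only (red), MS-only (blue) and shared (grey) regions. A gene end lies inside 3.03% of OB-only, 2.46% of MS-only and 42.1% of shared regions, and 6.78%, 14.5% and 1.99% lie over 200 kb away.

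The OB-only and MS-only sets were spread unevenly over chromosomes. There were 1.12 OB-only regions for each MS-only region on X (180 and 161) and 1.33 on chromosome 3, against 3.44 on chromosome 19 (244 and 71). The sex of the embryos is not given in the labels, and its part in the X value was not tested.

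Most OB-only and MS-only regions carried H3K27ac at another stage as well. Of OB-only regions 51.0% had an H3K27ac peak at ES, 61.5% at LS and 43.5% at EHF. Of MS-only regions 47.6% had one at ES, 49.2% at LS and 30.4% at EHF. Of shared regions it was 94.8% at ES, 96.9% at LS and 92.3% at EHF. LS was the stage at which most regions of either class were seen. With every list cut to its upper 50% of peaks, the order at ES, which comes before both stages, turned. There 57.8% of OB-only and 64.4% of MS-only regions were marked at ES, and such a region could hold a weaker peak of the other stage. Against the whole other list the order did not turn, with 84.7% of 378 OB-only and 65.8% of 76 MS-only regions marked at ES.

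A stage order would place OB-only regions at later stages and MS-only regions at earlier ones, and the share that had such a pattern hung on how it was defined. An H3K27ac peak at LS or EHF but not at Pre_PS or ES was found for 2305 OB-only regions (26.99%), and at both LS and EHF for 849 of them (9.94%). Of MS-only regions 22.2% and 6.58% had the same patterns. A peak at ES but not at EHF was found for 1212 MS-only regions (28.2%), and one at Pre_PS or ES but not at LS or EHF for 604 (14.0%). These patterns were also found in 22.3% and 8.98% of OB-only regions. Beside these, 2148 OB-only regions (25.2%) and 670 MS-only regions (15.6%) had a peak at ES, LS and EHF, so that MS or OB was the only later stage without one. No other H3K27ac list had a peak in 1817 OB-only regions (21.3%), 1235 MS-only regions (28.7%) and 216 shared regions (0.843%).

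The enhancer mark H3K4me1 covered many regions in which H3K27ac was absent at that stage. Of OB-only regions 75.2% had H3K4me1 at OB and 58.9% at MS. Of MS-only regions 62.8% had H3K4me1 at OB and 51.8% at MS, so H3K4me1 was seen in MS-only regions more often at OB, where H3K27ac had no peak. Of shared regions 98.2% had it at OB and 95.5% at MS. The H3K4me1 library of OB was the deeper one, as the background values above show, and the part of this in the order was not tested.

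**Figure D3:**
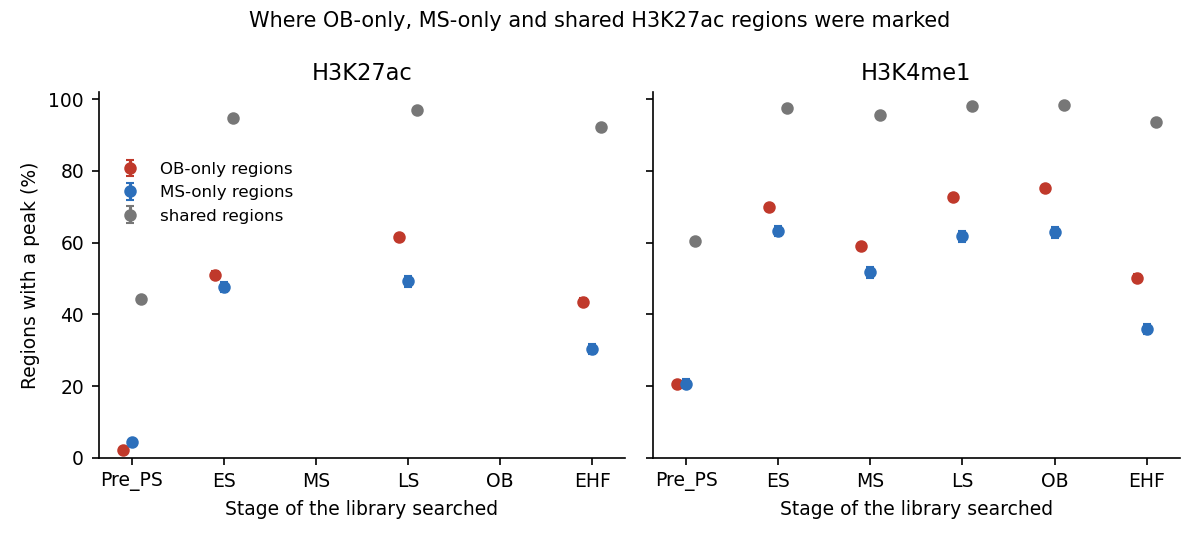
Percent of OB-only (red), MS-only (blue) and shared (grey) H3K27ac regions with a peak (y axis) in each of the other H3K27ac libraries (left) and in the H3K4me1 libraries (right), by stage (x axis), with 95% Wilson intervals. At ES 51.0% of OB-only and 47.6% of MS-only regions carried H3K27ac, and shared regions stand above both at every stage.

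Restricting to strong peaks left few regions at a single stage. An OB peak in the upper 50% of its list (−log10 q of at least 8.24) with no MS peak of any strength was found in 378 regions, 4.43% of OB-only regions. An MS peak in the upper 50% (at least 8.59) with no OB peak was found in 76 regions, 1.77% of MS-only regions. The weakest OB-only region inside the limit had 8.25 and the next outside it 8.24, and for MS-only regions these were 8.62 and 8.59. Of the 378 strong OB-only regions, 274 (72.5%) had H3K27ac at ES, LS and EHF and 9 in no other library. Of the 76 strong MS-only regions, 34 (44.7%) had it at ES, LS and EHF and 13 (17.1%) in no other library. A strong OB-only region was thus mostly one that MS alone lacked among the later stages.

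The 8 OB-only regions of highest −log10 q were nearest to Arhgap23 (a GTPase-activating protein), Ralyl, Man1c1 (a mannosidase of N-glycan trimming), Tns4 (a tensin of cell adhesions), Sh3tc2, Ptpn1 (the tyrosine phosphatase PTP1B), Rarg (a retinoic acid receptor) and Atp9a. All 8 had H3K27ac at LS and EHF, 7 had it at ES, and all 8 had H3K4me1 at each of the 5 later stages. The region of Arhgap23 (chr11:97443855-97444655, inside the gene) had a −log10 q of 19.8, at percentile 76.7 of the OB list. That of Rarg (chr15:102252232-102252955, inside the gene) lay 4.57 kb from a gene end with a −log10 q of 15.6.

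The 8 strongest MS-only regions behaved differently from one another. The strongest (chr5:149247962-149248810), 16.2 kb from an end of Alox5ap, which serves leukotriene synthesis, had a −log10 q of 26.96 at percentile 90.4 of the MS list. No other H3K27ac or H3K4me1 library had a peak there. The same held for the region nearest to Capza3 (chr6:140114325-140114733, 71.5 kb away), while those near Calb2, Parp1, Etv6, Myo3b, H2al1j and LOC115488283 had a peak in at least 1 other library.

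The widest OB-only regions were nearest to 2900026A02Rik (3.88 kb, chr5:113214284-113218159), Septin9 (3.41 kb), Cdc42bpb (3.23 kb) and Cd82, a tetraspanin gene (3.12 kb). The widest MS-only regions were nearest to Otof, which encodes otoferlin (3.33 kb, chr5:30379972-30383303), Slc2a6, a glucose transporter gene (3.23 kb), Hrh1, a histamine receptor gene (2.98 kb), and Pja1 (2.90 kb). Of the 8 widest OB-only regions all 8 were marked at ES, and of the 8 widest MS-only regions 7 were.

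To describe genes, each protein-coding gene was given the bases nearer to its ends than to those of any other gene, within 100 kb, as its territory. Its share was the number of covered bp in the territory per covered Mb of the library (bp per Mb below). A gene was called higher or lower at OB where its share was at least 1.5 times that at MS, or MS 1.5 times OB, with at least 1 kb covered in the higher library. Of 11618 genes with enough coverage, 1195 (10.3%) were higher at OB and 1094 (9.42%) lower. At a ratio of 2 there were 476 higher (4.1%) and 422 lower (3.63%). From the upper 50% of peaks 1128 of 9365 genes were higher (12%) and 859 lower (9.17%), and of the calls from all peaks 249 higher and 309 lower ones were made there too. The median log2 ratio of share was −0.02, with an interquartile range of −0.20 to 0.19. Genes with 1 or more OB-only regions nearest to their ends numbered 5158 (23.8% of 21631), and those with an MS-only region 2733 (12.6%); the most crowded were Arhgef10l with 12 OB-only regions and Grik3 with 7 MS-only regions.

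Shares of the called genes at the other stages were set beside the order of the stages. Among the genes higher at OB, MS had the lowest share of the 5 later stages in 819 (68.5%) and OB the highest in 662 (55.4%). Among the genes lower at OB, OB had the lowest share in 539 (49.3%) and MS the highest in 808 (73.9%). A call by OB against MS favours such extremes. Neither these shares nor those of a stage order below were taken over all genes. Whether an order was more or less frequent among called genes is therefore not known. Shares at LS and EHF nearer to OB with ES nearer to MS, the order of the stages, were found in 151 of the higher genes (12.6%) and 144 of the lower ones (13.2%). With LS on the side of MS, an order of the stages too, there were 84 more higher and 120 more lower genes, so that 235 (19.7%) and 264 (24.1%) followed an order in all. H3K4me1 was above MS at OB in 56.6% of the higher genes, against 40.7% of all genes with enough coverage. It was below MS at OB in 53.1% of the lower genes, against 59.2% of all.

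The largest positive differences in share were those of 12 genes, namely Hspg2, Cdc42bpb, 2900026A02Rik, Man1c1, Hmcn2, Cbfa2t3, Ttc7, Cebpb, Septin9, Sdk2, Pgs1 and Prex1. Hspg2 encodes the basement membrane proteoglycan perlecan, and its territory held 858 bp per Mb at OB against 575 at MS, from 31.2 kb at OB and 20.7 kb at MS. This was a ratio of 1.49, just under the limit for a call, and the territory held 8 OB-only and no MS-only regions. Cdc42bpb, which encodes a kinase that acts downstream of Cdc42, was higher at OB, with 545 bp per Mb at OB and 282 at MS. Hmcn2, which encodes the matrix protein hemicentin 2, was also higher, with 411 bp per Mb at OB and 179 at MS.

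Cbfa2t3 was higher at OB as well, with 526 bp per Mb at OB and 304 at MS. Cebpb, a leucine zipper transcription factor gene, held 791 bp per Mb at OB and 592 at MS, below the limit for a call. At all 12 genes MS had the lowest share of the 5 later stages, and OB had the highest at 4, though a choice by OB minus MS favours low MS values. Their territories held 76 OB-only and 8 MS-only regions, and 7 of the 12 passed the call. At ES, the earlier stage, Hspg2 had 1049 bp per Mb and Cdc42bpb 399.

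The largest negative differences were found at Cdh22, Cbx8, Rbm19, Cacna1g, Kmt2d, Kcnab2, Pmepa1, Hdac5, Tpsg1 and Mid1. Cdh22, a cadherin gene, was lower at OB, with 481 bp per Mb at OB against 762 at MS, from 17.5 kb at OB and 27.4 kb at MS. Its share was 612 at ES, 654 at LS and 421 at EHF, so EHF lay below OB. Cbx8, a Polycomb repressor gene, was lower, with 289 bp per Mb at OB and 512 at MS, and Cacna1g, a T-type calcium channel gene, was lower, with 270 at OB and 483 at MS.

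Of these 10 genes, 7 passed the call, MS had the highest share of the 5 later stages at 7 and OB the lowest at 5. Rbm19, Kmt2d, Kcnab2, Hdac5 and Tpsg1 turned to a higher share at OB in the upper 50% of peaks, as Pgs1 among the genes above turned to a lower one. Mid1, a ubiquitin ligase gene, crosses the boundary of the region that mouse X and Y share, so its 105 bp per Mb at OB and 226 at MS are uncertain.

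**Figure D4:**
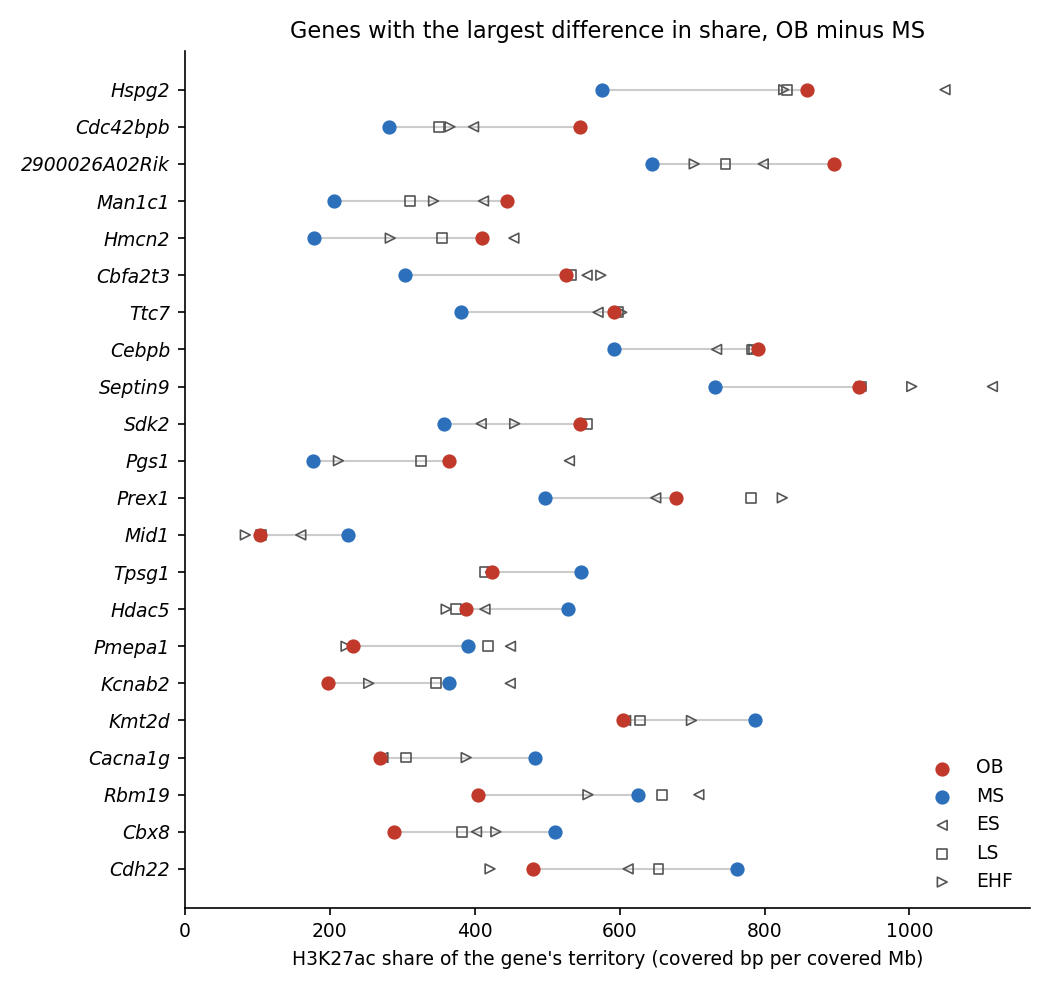
H3K27ac share of the territory in covered bp per covered Mb (x axis) of 12 genes with the largest positive and 10 with the largest negative differences between OB (red) and MS (blue), with ES, LS and EHF as open symbols. For the upper 12 genes MS is the lowest of the 5 stages, from Hspg2 (858 at OB, 575 at MS) to Prex1 (678 and 498), and for Cdh22 OB stands at 481 and MS at 762.

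Pmepa1 encodes an inhibitor of TGF-beta and Nodal type SMAD signalling and was the one called gene of the primitive streak list. Its share was lower at OB, with 232 bp per Mb at OB against 391 at MS. The stages fell into separate sides, with 450 at ES and 419 at LS beside MS, and 223 at EHF beside OB. No OB-only region and 3 MS-only regions lay nearest to it. The strongest of these (chr2:173300373-173300980, 23.6 kb from a gene end) had a −log10 q of 9.34 and was marked at LS and EHF too. H3K4me1 at Pmepa1 was 447 bp per Mb at OB and 516 at MS.

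Genes of the 17 lists were called at a smaller share than all genes from all peaks, and not from the upper 50%. Of 303 list genes 251 had enough coverage, 11 of them (4.38%) were higher at OB against 10.3% of all genes, and 17 (6.77%) were lower against 9.42%. In the upper 50% of peaks 31 of 229 list genes (13.5%) were higher, against 12% of all genes, and 24 (10.5%) lower, against 9.17%. List genes had larger covered territories, with a median of 3.72 kb against 2.07 kb for all genes. In territories of 2 to 4 kb 4 of 93 list genes were higher and 7 lower, against 11.7% and 10.7% of all genes, and over 8 kb 5.19% of all genes were higher and 3.41% lower.

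Many calls of list genes were lost under another setting. Of the 11 higher ones 3 were also made in the upper 50% of peaks (Alpl, Klf1 and Sox3), and of the 17 lower ones 10 were (Cdh22, Erg, Foxh1, Pax3, Pmepa1, Rpl13a, Rplp0, Rspo3, Tbp and Zic1). Without floor peaks the calls of Plet1, Pax3 and Id4 were lost, with the same number of peaks those of Plet1, Rxra, Pax3 and Rspo3, and with territories of 50 kb those of Plet1, Cdh5 and Notch2. As background for counts of members, the share was above MS at OB in 46.4% of all genes with enough coverage and below in 53.6%. It was above in 32.5% and below in 67.5% in the upper 50% of peaks, and 55.0% and 45.0% with the same number of peaks. Of the regions found at a single stage 66.5% were OB-only, and of those near list genes 72.3%.

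Genes of the primitive streak list, where mesoderm and endoderm leave the epiblast, summed to 2165 bp per Mb at OB against 2500 at MS. The share was below MS at 15 of 18 members and above at 2, and Pmepa1 made up −158 of the difference of −335. Not all members kept this direction: the differences of T, Mixl1, Gsc and Fgf8 turned with the same number of peaks. T, the streak factor brachyury, held 25.7 bp per Mb at OB and 26.04 at MS, from 0.935 kb at each. That is under the 1 kb needed for a call, and the difference comes from the scaling alone. Eomes, the T-box factor of early mesoderm and endoderm, held 97.8 at OB and 124 at MS, and Mixl1, a homeobox factor of mesendoderm, 36.9 at OB and 38.6 at MS. Wnt3, a ligand needed to form the streak, held 200 bp per Mb at OB and 273 at MS, and 1 MS-only region near it (chr11:103815984-103816339) was marked at ES and not at LS or EHF. Axin2, a target and inhibitor of Wnt signalling, went the other way with 376 at OB and 269 at MS. Among the others named here Pmepa1 alone passed the call.

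Neural ectoderm genes had the largest negative sum, with 4685 bp per Mb at OB against 5166 at MS, and 18 of 24 members were below MS. Zic1, a zinc finger factor of the neural plate, was lower at OB, with 21.1 bp per Mb at OB and 73.5 at MS. It held 67.7 at ES, 59.0 at LS and 57.6 at EHF, so OB alone was low among the later stages. All 3 of its regions found at a single stage were MS-only. The strongest (chr9:91355522-91356241, 1.82 kb from a gene end) had a −log10 q of 8.91 and was marked at ES, LS and EHF. Another (chr9:91261230-91262225), 95.8 kb from a gene end, was a floor peak with a −log10 q of 2.14. Without floor peaks Zic1 held 21.4 bp per Mb at OB and 46.4 at MS and kept its call. Pax3, a factor of the dorsal neural tube, was lower, with 35.8 at OB and 57.2 at MS, a call lost without floor peaks. Sox3, an early neural factor, was higher, with 132 at OB and 78.8 at MS. It held 132 at ES, 108 at LS and 106 at EHF, so MS was lowest of the later stages.

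Six3, a forebrain factor, held 202 bp per Mb at OB and 289 at MS, and Otx2, a factor of the anterior epiblast and forebrain, 182 at OB and 145 at MS; neither passed the call. Sox2, a factor of pluripotency and neural fate, held 148 at OB and 197 at MS, and its difference turned in the upper 50% of peaks, as that of Otx2 did. Definitive endoderm and node genes summed to 1608 bp per Mb at OB and 1730 at MS, with none called. Foxa2, a pioneer factor of endoderm and node, held 174 at OB and 152 at MS. Sox17, an endoderm factor, held 84.7 at OB and 115 at MS.

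Genes of the extraembryonic ectoderm and trophoblast list had the largest positive difference in sum, with 3379 bp per Mb at OB against 2973 at MS. In the upper 50% of peaks the difference was 114, below those of the posterior Hox and Cdx list (609) and the lateral plate list (524). The share was above MS at 16 of 18 members, and 26 OB-only against 7 MS-only regions lay nearest to them, beside the 66.5% OB-only over all such regions. Zfpm1, a cofactor of GATA factors, gave 144 of the difference of 406 but did not pass the call. The lists overlap: Esrrb, which gave 46.5, is also in the epiblast list, and Gata2, which gave 41.1, in the blood and endothelium list. Eomes, Cdx2, Tfap2c, Gata3, Hand1 and Wnt7b are likewise members of other lists, so the sum is not one of trophoblast genes alone. Plet1, a trophoblast surface protein gene, was higher, with 29.7 bp per Mb at OB and 12.1 at MS, a call lost without floor peaks. Esx1, a placental homeobox gene, was higher, with 82.6 at OB and 33.7 at MS, and Bmp8b, a BMP ligand gene, was higher, with 88.0 at OB and 54.0 at MS; both of these turned in the upper 50% of peaks.

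The list sum was 3158 bp per Mb at ES, 3160 at LS and 3289 at EHF. MS stood lowest of the 5 later stages. Elf5, a defining trophoblast factor, was covered at OB (12.2 bp per Mb) and was at 0 at MS, and it held 10.1 at ES, 9.63 at LS and 0 at EHF. Visceral endoderm genes, the other extraembryonic list, summed to 584 at OB and 586 at MS. Of its 18 members 7 were at 0 in both libraries, among them Afp and Ttr. Hnf4a, a nuclear receptor gene of endoderm, was higher with 47.8 at OB and 25.0 at MS, and Rbp4, a retinol carrier gene, was lower with 29.4 at OB and 62.1 at MS, though it turned in the upper 50% of peaks. What part tissue left on OB embryos had in the trophoblast sum was not tested.

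Posterior Hox and Cdx genes, which pattern the trunk, summed to 1542 bp per Mb at OB and 1440 at MS, with 12 of 18 members above MS and none called. Here 7 OB-only and no MS-only regions were found, few regions to set beside the 66.5% over all. A region 0.750 kb from an end of Cdx2, a caudal homeobox factor of posterior growth, was OB-only in the upper 50% of peaks (chr5:147301650-147302260, −log10 q 10.5). It was marked at LS and EHF and at neither Pre_PS nor ES, and the territory of Cdx2 held 164 bp per Mb at OB and 145 at MS. Hoxb9 held 138 at OB and 94.5 at MS with an OB-only region of the same pattern (chr11:96261562-96261965), and Hoxb1 held 73.0 at OB and 78.8 at MS, a difference that turned in the upper 50% of peaks.

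Differences in sum of the mesoderm lists were smaller than those of the trophoblast, neural and streak lists, though in the upper 50% of peaks 2 of them exceeded that of the trophoblast list. Nascent and presomitic mesoderm summed to 2336 bp per Mb at OB and 2319 at MS, cardiac mesoderm to 1527 at OB and 1500 at MS, and blood and endothelium to 1423 at OB and 1335 at MS. Lateral plate and extraembryonic mesoderm summed to 2830 at OB and 2708 at MS. There Bmp7, a BMP ligand gene, made up 127 of the difference of 123 with 499 at OB and 372 at MS, so the rest of the list summed to −4.34. In the upper 50% of peaks the differences were 228 for nascent and presomitic mesoderm and 524 for lateral plate mesoderm, and with the same number of peaks 123 and 189.

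Single mesoderm genes passed the call in both directions. Rspo3, a Wnt amplifier of presomitic mesoderm, was lower, with 52.7 bp per Mb at OB and 81.0 at MS, and Myocd, a cofactor of heart and smooth muscle genes, was lower, with 21.6 at OB and 43.4 at MS. Klf1, the red cell factor, was higher, with 69.4 at OB and 34.8 at MS. It held 32.4 at ES, 32.9 at LS and 33.8 at EHF, so OB alone was high among the later stages. Cdh5, the endothelial cadherin gene, was higher, with 52.0 at OB and 28.8 at MS. It held 81.6 at ES, 67.5 at LS and 55.9 at EHF, so MS alone was low among the later stages. Erg and Pecam1, of endothelium too, were lower: Erg held 21.5 at OB and 35.7 at MS, and Pecam1 36.8 at OB and 62.7 at MS. The blood and endothelium list thus held calls either way, 2 higher and 2 lower.

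Main lineage factors of mesoderm stayed under the limit for a call. Mesp1, a factor of early cardiac mesoderm, held 157 bp per Mb at OB and 116 at MS, and Tbx6, of presomitic mesoderm, 92.7 at OB and 113 at MS. Hand1, of lateral and extraembryonic mesoderm, held 228 at OB and 211 at MS, and Gata4, of heart and endoderm, 152 at OB and 140 at MS. The differences of Tbx6 and Gata4 turned in the upper 50% of peaks. Nkx2-5, of heart precursors, held 180 at OB and 189 at MS, and Tal1, of blood and endothelial precursors, 136 at OB and 119 at MS.

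A late pattern was seen at single regions near mesoderm genes, and near genes of other lists too. The OB-only region 0.362 kb from an end of Meox1, a somite homeobox factor (chr11:101893327-101893992), lay in the upper 50% of peaks with a −log10 q of 8.33 and was marked at LS and EHF but not at Pre_PS or ES. Regions of the same pattern below that limit lay near Tcf15, a paraxial mesoderm factor (2 regions), Smarcd3, a chromatin remodelling subunit of heart precursors (2), Bmp7 (2) and Foxf1, a forkhead factor of lateral mesoderm (1). Apart from these mesoderm genes, the pattern was seen near Cdh22, Rxra, Notch1, Lama5, Col4a2, Dhrs3, Smad6, En2, Zic2, Foxa2, Sox21, Tfap2c, Cdx2 and Hoxb9. Near all list genes there were 183 OB-only regions, 24 of them (13.1%) with this late pattern, against 9.94% of all OB-only regions. Near them were also 70 MS-only regions, 9 of them (12.9%) at Pre_PS or ES and not at LS or EHF, against 14.0% of all MS-only regions. Those 9 lay near Chrd, Lhx1, Lhx2, Sox1, Sox17, Wnt3, Snai2, Crabp2 and Ywhaz.

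Among the remaining lists, few genes passed the call. Epiblast and pluripotency genes summed to 1465 bp per Mb at OB and 1386 at MS with none called, and Pou5f1, the pluripotency factor OCT4, held 24.2 at OB and 23.8 at MS and turned in the upper 50% of peaks. Surface ectoderm and amnion summed to 2435 at OB and 2454 at MS, where Gata3, a factor of surface ectoderm and trophoblast, held 194 in both and was lower at OB in the upper 50% of peaks. Tfap2b, an AP-2 factor, was lower with 23.6 at OB and 44.4 at MS. Primordial germ cell genes summed to 784 at OB and 741 at MS. Alpl, which encodes the alkaline phosphatase used to stain these cells, was higher with 193 at OB and 117 at MS. Nanos3, an RNA-binding factor that germ cells need, was lower with 74.7 at OB and 132 at MS. It held 77.2 at ES, 79.4 at LS and 91.8 at EHF, so MS alone was high among the later stages.

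Signalling genes showed mixed directions. Nodal, BMP, Wnt and FGF pathway genes summed to 5489 bp per Mb at OB and 5516 at MS, with 17 of 36 above MS and 19 below. Besides Pmepa1, Foxh1, the DNA-binding partner of SMAD proteins in Nodal signalling, was lower with 41.6 at OB and 88.4 at MS. It held 53.7 at ES, 57.2 at LS and 62.7 at EHF. Id4, an inhibitor of basic helix-loop-helix factors, was lower with 78.9 at OB and 122 at MS, a call lost without floor peaks. In the retinoid, Notch and adhesion list Rxra, a retinoid receptor gene, was higher with 380 at OB and 252 at MS and had 8 OB-only regions and 1 MS-only region. Notch2, a Notch receptor gene, was higher with 124 at OB and 75.9 at MS and turned in the upper 50% of peaks. Snai2, a factor of epithelial to mesenchymal transition, was lower with 20.7 at OB and 34.4 at MS.

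**Figure D5:**
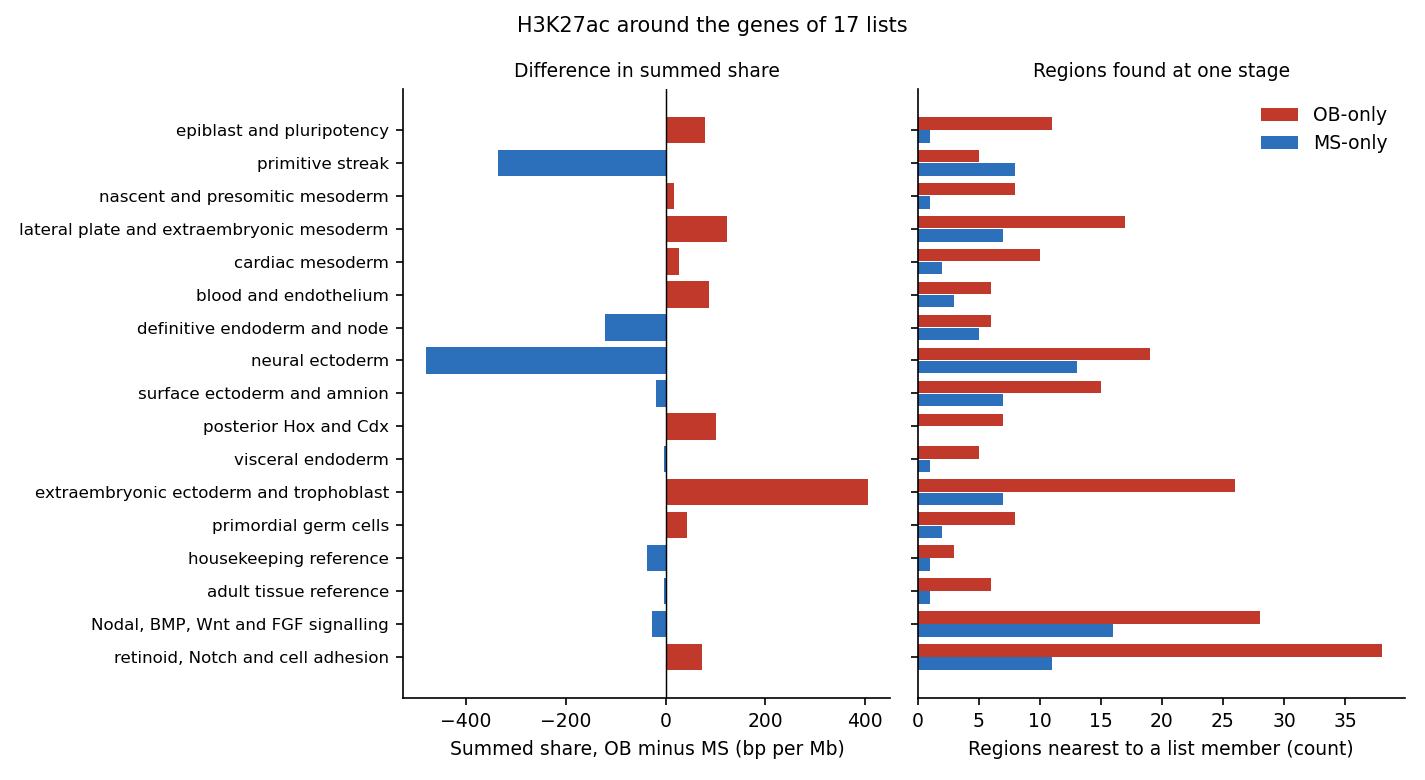
Difference between OB and MS in summed H3K27ac share of 17 gene lists in covered bp per covered Mb (left, positive where OB is higher) and number of OB-only (red) and MS-only (blue) regions nearest to their members (right). The trophoblast list stands at 406 with 26 OB-only and 7 MS-only regions, and the neural and primitive streak lists at −481 and −335.

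Reference genes give the scale of such differences. Housekeeping genes summed to 1185 bp per Mb at OB and 1222 at MS, yet 3 of the 15 with enough coverage were lower at OB: Tbp (19.1 at OB, 41.5 at MS), Rpl13a (35.6 and 78.3) and Rplp0 (23.3 and 48.2). The ribosomal protein genes have many near copies in the genome, and their part in the values of Rpl13a and Rplp0 was not tested. Adult tissue genes summed to 574 at OB and 577 at MS, and Mbp, the myelin basic protein gene, was higher with 87.3 at OB and 48.8 at MS but turned in the upper 50% of peaks.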

How the data were processed

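Mouse embryo cells of 6 stages were profiled for H3K27ac and H3K4me1 with 1 library per stage and mark. Per the submitters' processing notes MACS2, Bowtie2, deepTools and Picard were run on the mm10 build; for versions and settings, not given in the sources used here, nothing is assumed. One broad peak list per library was deposited. Its fold column is the authors' ratio over background. The −log10 p and −log10 q of a peak were deposited as the peak caller wrote them, and all 3 were used within a list only. Depth was inferred from floor peaks: a whole pileup (up to 20) and a Poisson background giving both the lowest fold and the lowest p were sought, within 0.001 on −log10 p.

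Peaks on chromosomes 1 to 19 and X were used, leaving out 40 at OB and 34 at MS on other sequences (Y, mitochondrial or unplaced). OB and MS peaks that overlapped or touched were merged, and a region counted as marked in another library if any peak shared 1 bp or more with it. The 21631 protein-coding genes came from RefSeq's GRCm38 table, with both ends of each gene used. Log2 ratios of share had 10 bp per Mb added to both values. Wilson intervals (95%) on shares of regions reflect counting error alone. No sequence of a peak is shown, because only promoter sequences were at hand. Scripts ran in Python 3.11.15 with pandas 2.3.3, numpy 2.4.6 and scipy 1.17.1. Tested on simulated data, the steps recovered 334 of 334 region classes, 200 of 200 territory coverages and the pileup with its background in 160 of 160 cases.

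The stages, the 17 gene lists and the rules were chosen with earlier results of these data known. Named genes were the 12 with the largest and the 12 with the smallest difference in share (at least 2 kb covered), list genes past the call with the same direction in the upper 50% (up to 4 per list and direction), the gene nearest to the 8 strongest and 8 widest regions of each class, and 18 fixed lineage factors; other genes are named as members of a list. Of these, 2 genes with a negative difference are not reported here. Alternatives tried were the upper 50% of each list, the same number of peaks, no floor peaks, a merging gap of 1 kb, far beyond 5 kb, presence over 50% of a region, territories of 50 kb, covered bp without scaling and a call ratio of 2. Gene names without a sequence in the RefSeq promoter table were only named.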

Additional observations from a re-analysis of the deposited data

How the results depend on the processing

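No paired analysis was possible because each stage had 1 library and no test across replicates was made; for the same reason no replicate could be left out. Depth limits which weak peaks were called, and the sets of regions at a single stage consist mainly of weak peaks. OB-only regions numbered 3203 when both lists were cut to the upper 50% by −log10 q, 5283 with equal numbers of peaks and 378 when the upper 50% was set against the whole other list. MS-only regions numbered 1010, 5720 and 76 under these settings, so with the same number of peaks OB-only regions were the fewer. Shared regions numbered 13997 in the upper 50%.

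Far regions made up, for OB-only and MS-only regions, 70.5% and 64.4% in the upper 50%, 89.2% and 91.7% with the same number of peaks, and 72.8% and 81.2% beyond 5 kb; in the upper 50% the order of the classes turned. The order of the classes at ES turned in the upper 50% here too, but not against the whole other list (84.7% and 65.8%). H3K27ac at ES was seen in OB-only and MS-only regions at 57.8% and 64.4% in the upper 50%. It was at 43.2% and 35.3% with the same number of peaks, and at 52.4% and 49.96% without floor peaks. Where a peak had to cover 50% of the region, it was at 47.0% and 42.2%. At EHF these were 45.7% and 43.0%, 46.3% and 27.6%, 44.8% for OB-only regions without floor peaks, and 39.5% and 25.6%. H3K4me1 at the same stage was seen in OB-only and MS-only regions at 84.0% and 76.2%, 80.3% and 57.3%, 77.9% and 50.04%, and 71.8% and 44.9% in the same order of settings.

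Genes called numbered 476 higher and 422 lower at a ratio of 2. List genes called numbered 31 higher and 24 lower in the upper 50%, and 2 higher and 7 lower at a ratio of 2. In the upper 50% the difference in share turned for Kcnab2 (1.83 bp per Mb), Otof (6.70), Rbm19 (29.9), Pgs1 (−3.44), Ptpn1 (−19.8) and Tns4 (−8.88). The list differences of the trophoblast (114), neural (−860) and primitive streak (−563) lists kept their sign in the upper 50%, and with the same number of peaks (576, −318 and −233). Of the 17 lists 3 turned in the upper 50%, primordial germ cells (−20.8), visceral endoderm (128) and surface ectoderm (77.7). With the same number of peaks 4 turned, visceral endoderm (16.6), surface ectoderm (76.7), signalling (245) and housekeeping genes (37.99). Of the 18 fixed lineage factors, 7 turned in the upper 50% and 3 with the same number of peaks. In all genes with enough coverage, OB was above MS in 32.5% in the upper 50% and 55.0% with the same number of peaks. The cause of these shifts was not tested.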

Other observations

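OB-only regions gathered around some genes outside the lineage lists. Arhgef10l, which encodes a guanine nucleotide exchange factor, had 12 OB-only, 2 MS-only and 14 shared regions nearest to its ends. Sh3pxd2a, which encodes the podosome scaffold TKS5, had 11 OB-only and 2 MS-only regions, and Prex1, which encodes an activator of Rac, had 10 OB-only and no MS-only regions. Grik3, a kainate receptor gene, had the most MS-only regions, 7, beside 8 OB-only regions. Genes with 3 or more such regions numbered 480 for OB-only and 85 for MS-only regions. These genes were chosen for their counts, and no test was made of them.

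Promoters marked at a single stage were few. Of 32619 RefSeq windows 565 (1.73%) held a peak at OB alone and 400 (1.23%) at MS alone, against 13880 (42.6%) at both. H3K27ac was present at LS in 73.1% of the windows marked at OB alone and in 66.5% of those marked at MS alone, and at ES in 60.4% and 60.5%.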
